A study of Mus musculus with 2 samples.

Results

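The 8 genes described here, Atoh1, Neurog1, Neurog2, Ptf1a, Neurod4, Neurod1, Nhlh1 and Nhlh2, encode basic helix-loop-helix (bHLH) transcription factors of developing neurons. They were chosen by symbol from the 31053 genes of the deposited count tables, and each symbol matched 1 gene. Mouse embryonic stem cells of the MM13 line were differentiated to day 9 with RA (retinoic acid) or with RA and bone morphogenetic protein 4 (RA+BMP4). Dead cells were removed from both cultures, and each was profiled as 1 single-cell library with the 10x Genomics 3' chemistry, which counts unique molecular identifiers (UMIs). The 2 libraries are 1 culture of 1 cell line each, so no difference between conditions has a replicate check or a test, and every interval given covers counting error only, at the 95% level.

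Proneural bHLH proteins start neurogenesis. Each binds DNA as a dimer with a widely expressed E protein (Tcf3, Tcf4 or Tcf12) at a short motif called the E-box, and Id proteins take up the E proteins and so block the dimer. In the dorsal neural tube, where BMP from the roof plate patterns the progenitors, separate domains use separate factors. Atoh1 marks the most dorsal progenitors and makes the dI1 interneurons, Neurog1 and Neurog2 act in the next domain and make dI2, and Ptf1a acts further ventrally and directs neurons to an inhibitory fate. Neurod4, Neurod1, Nhlh1 and Nhlh2 act downstream, in cells that are leaving the cycle or have become neurons. Proneural factors also switch on Notch ligands such as Dll1, through which a cell holds back its neighbours.

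After filtering, the RA library held 5896 cells with a median of 14190 UMIs, and the RA+BMP4 library held 8333 cells with a median of 10460. The median share of mitochondrial UMIs was 6.06% in RA and 4.22% in RA+BMP4. Because of the difference in depth, shares of cells were taken after each cell was thinned to 5000 UMIs, which left 5709 and 7765 cells (187 and 568 were too shallow). The deposited barcode lists shared 43 barcodes, of which 21 were among the kept cells. Leaving these out moved no call on the 8 genes. The cells were grouped into 24 clusters without the 8 genes or any gene of the lists used below, and clusters were called "X-like" from marker lists.

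Promoter sequence is shown for 6 of the genes, because they fall into the pairs and the order described below: the 3 early factors with the clearest division between cells, and 3 later ones that share cells with them. Each run covers 250 bases before to 30 bases after the RefSeq start site (build GRCm38.p6), 5′ to 3′ on the gene's strand. Capitals mark E-boxes, CANNTG, a pattern that reads the same on both strands, though a single form such as CAGATG does not. The regions are chr6:64728875-64729154 (+) for Atoh1, chr13:56252151-56252430 (-) for Neurog1, chr3:127632886-127633165 (+) for Neurog2, chr10:130280109-130280388 (-) for the second start site of Neurod4, chr1:172057567-172057846 (-) for Nhlh1 and chr3:102009895-102010174 (+) for Nhlh2.
Atoh1: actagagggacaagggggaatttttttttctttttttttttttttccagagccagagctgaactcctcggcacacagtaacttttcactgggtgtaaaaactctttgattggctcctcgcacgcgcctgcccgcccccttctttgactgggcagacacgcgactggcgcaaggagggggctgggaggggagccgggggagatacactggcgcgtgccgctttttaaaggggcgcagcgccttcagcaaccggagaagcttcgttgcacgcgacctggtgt
Neurog1: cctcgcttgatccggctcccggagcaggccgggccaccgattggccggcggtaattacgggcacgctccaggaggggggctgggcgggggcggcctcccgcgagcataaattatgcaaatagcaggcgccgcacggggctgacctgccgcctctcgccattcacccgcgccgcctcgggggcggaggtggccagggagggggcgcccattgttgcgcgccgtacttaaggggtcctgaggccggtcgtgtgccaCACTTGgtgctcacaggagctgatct
Neurog2: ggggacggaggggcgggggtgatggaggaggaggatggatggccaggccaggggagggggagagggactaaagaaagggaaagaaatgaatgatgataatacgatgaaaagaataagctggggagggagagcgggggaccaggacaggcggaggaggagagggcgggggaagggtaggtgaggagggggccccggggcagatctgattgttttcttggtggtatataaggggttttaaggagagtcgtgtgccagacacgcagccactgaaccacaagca
Neurod4: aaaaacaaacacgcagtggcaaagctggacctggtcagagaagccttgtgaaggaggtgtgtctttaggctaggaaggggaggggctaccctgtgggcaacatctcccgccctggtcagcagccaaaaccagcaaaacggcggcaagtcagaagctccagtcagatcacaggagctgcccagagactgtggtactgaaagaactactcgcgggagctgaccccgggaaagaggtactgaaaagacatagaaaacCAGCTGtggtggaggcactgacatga
Nhlh1: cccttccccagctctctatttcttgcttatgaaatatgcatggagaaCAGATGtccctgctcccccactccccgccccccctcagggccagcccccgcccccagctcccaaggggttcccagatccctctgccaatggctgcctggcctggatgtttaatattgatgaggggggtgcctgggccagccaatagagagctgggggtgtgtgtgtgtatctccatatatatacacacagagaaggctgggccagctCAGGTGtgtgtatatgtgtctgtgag
Nhlh2: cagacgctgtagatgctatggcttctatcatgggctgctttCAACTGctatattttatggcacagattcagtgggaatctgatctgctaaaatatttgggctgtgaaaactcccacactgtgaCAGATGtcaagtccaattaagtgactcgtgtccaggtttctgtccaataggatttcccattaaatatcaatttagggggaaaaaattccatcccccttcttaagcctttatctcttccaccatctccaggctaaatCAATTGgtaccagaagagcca

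These letters were found 0 times in the windows of Atoh1 and Neurog2, once in Neurog1 as CACTTG, once in the second window of Neurod4 as CAGCTG (its first start site, not shown, had 0), and at 2 places in Nhlh1, as CAGATG before the start site and as CAGGTG just after it. Nhlh2 held 3 matches: CAACTG was the farthest from the start site, then came CAGATG, and the match after the start site read CAATTG. Of 27025 mouse promoters of the same length, 1 per gene, 70.0% held at least 1 CANNTG, with a mean of 1.299 per window. The form CAGATG, counted on either strand, stood in 16.2% of them and CAGCTG in 14.7%. A match describes letters in a window and says nothing about binding.

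The genes lie at single loci. Atoh1 is at chr6:64729125-64731245, Neurog1 at chr13:56250478-56252163, Neurog2 at chr3:127633135-127635631, Neurod4 at chr10:130268152-130280240, Nhlh1 at chr1:172052292-172057573 and Nhlh2 at chr3:102010076-102015492 (GRCm38). Ptf1a, at chr2:19445663-19447501, overlaps an antisense gene, and Neurod1, at chr2:79452521-79456751, overlaps Cerkl on the same strand and an antisense model. How reads over such overlaps were counted is not given in the sources used here, so the values of Ptf1a and Neurod1 carry that uncertainty.

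Atoh1 and Neurod1 were at least 2-fold higher in the RA+BMP4 library, and the other 5 genes above the minimum level differed by less than 2-fold between the libraries. Levels are UMIs summed over all kept cells and scaled to the same library total (CPM). For Atoh1, 406 UMIs in RA gave 3.73 CPM and 1396 UMIs in RA+BMP4 gave 13.7 CPM. The log2 ratio was 1.88 (interval 1.72 to 2.04). Neurod1, a factor of differentiating neurons, stood at 4.44 CPM (483 UMIs) against 12.8 CPM (1296 UMIs), with a log2 ratio of 1.52 (1.37 to 1.68). The count of 2 higher and 0 lower among the 7 genes with at least 1 CPM in a library stands beside 2.52% of 13910 genes higher and 2.68% lower by the same rule. The median log2 ratio of the 7 was 0.65, against 0.07 over those 13910 genes.

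Neurog2 fell just short of the 2-fold line, at 9.78 CPM under RA against 19.4 CPM under RA+BMP4 (log2 ratio 0.99, 0.88 to 1.10). Its relative Neurog1 stood at 8.36 and 13.1 CPM (log2 ratio 0.65, 0.53 to 0.78). The later factors were closer together. Neurod4 was at 17.97 and 22.3 CPM and Nhlh1 at 25.4 and 30.3 CPM. Nhlh2, the most abundant of the 8 in both libraries by UMIs, was the only one of the 7 that was lower in RA+BMP4, at 55.7 and 45.7 CPM. Its log2 ratio was -0.28 (-0.34 to -0.23), but 0.30 under the stricter cell filter described next. Ptf1a was under 1 CPM in both libraries, at 0.441 CPM from 48 UMIs and 0.295 CPM from 30 UMIs, and its interval of -1.29 to 0.11 spanned no change.

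The number of genes past 2-fold rested on the cell filter and the minimum level. At a minimum of 20 CPM, 3 of the 8 genes could be read and 0 were higher, beside 0.811% of 7151 genes. Under a stricter one, which asked for 2000 genes and 5% mitochondrial UMIs or less, 1247 RA and 5884 RA+BMP4 cells were left, and Neurog2 and Neurog1 joined Atoh1 and Neurod1 with log2 ratios of 1.25 and 1.12, against 2.81 for Atoh1 and 2.14 for Neurod1. When every cell was given equal weight, the log2 ratio of Neurod1 was 1.08 and that of Atoh1 1.84, while Neurod4 and Nhlh1 stood at -0.02 and -0.03, against 0.31 and 0.26 from summed UMIs.

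**Figure D1:**
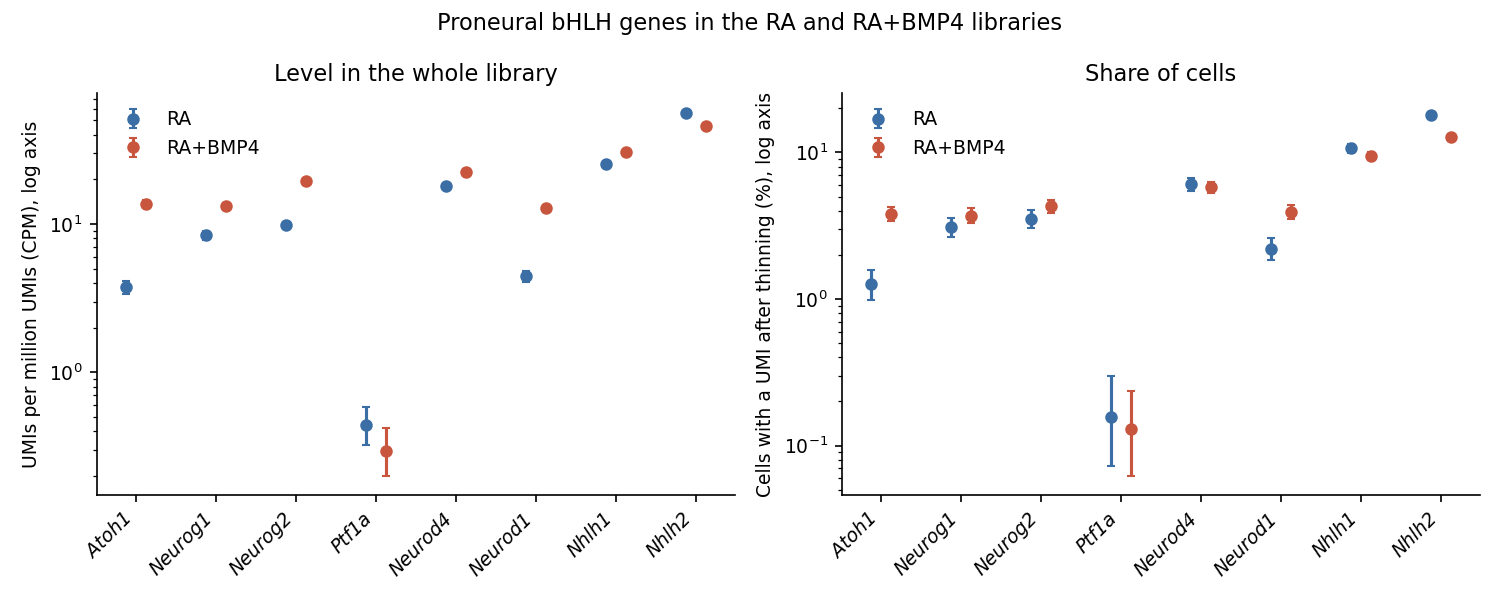
Level (CPM, log axis, Poisson intervals) and share of cells with a UMI after thinning (percent, log axis, Clopper-Pearson intervals) of each gene in the RA and RA+BMP4 libraries. Atoh1 has the widest gap between libraries, Nhlh2 is the most abundant, and Ptf1a lies under 1 CPM in both.

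By shares of cells, too, Atoh1 had the largest ratio of RA+BMP4 over RA among the 8 genes. An Atoh1 UMI was found in 1.26% of thinned RA cells (72 cells) and 3.83% of RA+BMP4 cells (297 cells), and the ratio of these shares was 3.03. Among cells with Atoh1, the mean number of thinned UMIs per cell differed by a ratio of 1.06 only. Neurod1 was found in 2.21% and 3.95% of cells (126 and 307), Neurog1 in 3.10% and 3.71% (177 and 288), and Neurog2 in 3.52% and 4.30% (201 and 334). For Neurog2, the ratio of mean UMIs per positive cell, 1.31, was above the ratio of shares, 1.22. Atoh1 was therefore found in more cells at a like level per cell, while Neurog2 differed by both.

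The later genes were found in like or smaller shares of RA+BMP4 cells. Neurod4 was found in 6.08% and 5.77% (347 RA and 448 RA+BMP4 cells), Nhlh1 in 10.7% and 9.48% (608 and 736), and Nhlh2 in 17.95% and 12.7% (1025 and 984). The intervals of Neurod4 and Nhlh1 overlapped between the libraries, and those of Nhlh2 (16.97 to 18.97% and 11.9 to 13.4%) did not. Without thinning the shares were larger, as for Atoh1 with 2.02% and 5.33%. In cells that should lack these factors, pluripotent-like cells (318 and 166, median depth 54310 and 38960 UMIs) and mesenchyme-like cells (429 and 907, median depth 25520 and 15860 UMIs), the thinned shares of the 8 genes ran from 0 to 1.21%. Taking 3 cells as the limit that a count of 0 allows, 0 of 318 cells allows a share of up to 0.943%. The library-wide share of Ptf1a, 0.158% in RA (9 cells) and 0.129% in RA+BMP4 (10 cells), was within this background. That of Atoh1 in RA, 1.26%, was just above the highest background value. This value came from 2 of 166 pluripotent-like RA+BMP4 cells, for Atoh1 and for Neurod1. In RA, Atoh1 was found in 0 of 318 pluripotent-like and 0 of 429 mesenchyme-like cells.

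Atoh1, Neurog1 and Neurog2 each had most of their UMIs in 1 cluster. Atoh1 was highest in cluster 11, a dI1-like cluster led by Rassf4, Lhx2, Lhx9 and Barhl1, with 216 CPM in the RA cells and 242 in the RA+BMP4 cells. That cluster held 110 RA cells and 448 RA+BMP4 cells, 1.87% and 5.38% of each library, and 87.2% and 81.5% of all Atoh1 UMIs. The share of its cells with an Atoh1 UMI was 51.8% in RA and 50.1% in RA+BMP4, and the intervals overlapped (42.1 to 61.5% and 45.3 to 55.0%). Within the cluster, then, Atoh1 was alike in both libraries, and the libraries differed in how many cells the cluster had.

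Neurog1 and Neurog2 met in cluster 9, a newborn neuron-like cluster led by Btbd17, Pcdh8 and Gadd45g that held 303 RA and 353 RA+BMP4 cells. Neurog1 stood there at 134 and 216 CPM and Neurog2 at 147 and 376 CPM. This cluster gave 63.7% and 62.1% of the Neurog1 UMIs, and 59.8% and 73.2% of the Neurog2 UMIs. The share of its cells with Neurog2 was 31.0% in RA (25.9 to 36.6%) and 57.0% in RA+BMP4 (51.6 to 62.3%), so here the level differed among cells of 1 cluster. Neurog1 was found in 35.6% and 45.3% of the same cells.

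Outside cluster 9 the level of the Neurogenins differed in some clusters and was alike in others. Neurog1 was found in the progenitor-like clusters 13 (26.8 CPM in RA and 88.9 in RA+BMP4) and 8 (6.45 and 36.6 CPM), where Neurog2 stood at 15.98 and 10.2 CPM and at 5.59 and 20.8 CPM. In RA the intervals of both genes overlapped in cluster 8 (4.92 to 8.30 and 4.18 to 7.33 CPM). Neurog2 was found in cluster 17, another newborn neuron-like cluster led by Tlx1, Smoc1, Tlx3 and Gadd45g, at 58.0 and 157 CPM, where Neurog1 stood at 17.7 and 12.1 CPM. Of all cells with Neurog2, 27.4% lay in cluster 17 in RA, and 14.1% lay in the dI2-like cluster 4 in RA+BMP4.

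Ptf1a was at its highest level in cluster 17, where 25 UMIs in RA gave 7.63 CPM and 6 UMIs in RA+BMP4 gave 12.1. Of its RA UMIs, 52.1% came from that cluster, but only 1.68% of the cluster's thinned RA cells had a Ptf1a UMI (5 of 297). In RA+BMP4 cluster 17 gave 20% of its 30 UMIs, the progenitor-like cluster 8 gave 33.3% (10 UMIs) and the pluripotent-like cluster 15 gave 16.7% (5 UMIs). Of the 10 thinned RA+BMP4 cells with Ptf1a, 4 were in cluster 8. At this depth its cells could not be described further.

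The later factors were found both in newborn neuron-like clusters and in neuron clusters. In cluster 9 Neurod4 stood at 272 and 375 CPM, where 55.1% and 69.8% of cells had a UMI. Nhlh1 stood at 276 and 346 CPM there, and 30.6% and 33.0% of all its cells were in that cluster. The rest of the Nhlh1 cells differed by library: 21.9% of those in RA were in the dI5/dILB-like cluster 14, while in RA+BMP4 21.7% were in the dI1-like cluster 11 and 16.98% in the dI2-like cluster 4. These clusters differed in size as well. Cluster 14 held 426 RA and 78 RA+BMP4 cells, cluster 11 held 110 and 448, and cluster 4 held 126 and 602. Nhlh2 was highest in some of the neuron clusters, with 457 and 362 CPM in the dI4/dILA-like cluster 20 and 280 and 321 CPM in the dI5/dILB-like cluster 14. It stood at 227 and 223 CPM in the dI2-like cluster 4 and at 197 and 248 CPM in the newborn neuron-like cluster 9. In the dI1-like clusters 3 and 12, which held 816 and 509 RA+BMP4 cells, it was low, at 19.6 and 32.3 CPM in that library. In RA+BMP4, 26.5% of the Nhlh2 cells were dI2-like cluster 4 cells.

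**Figure D2:**
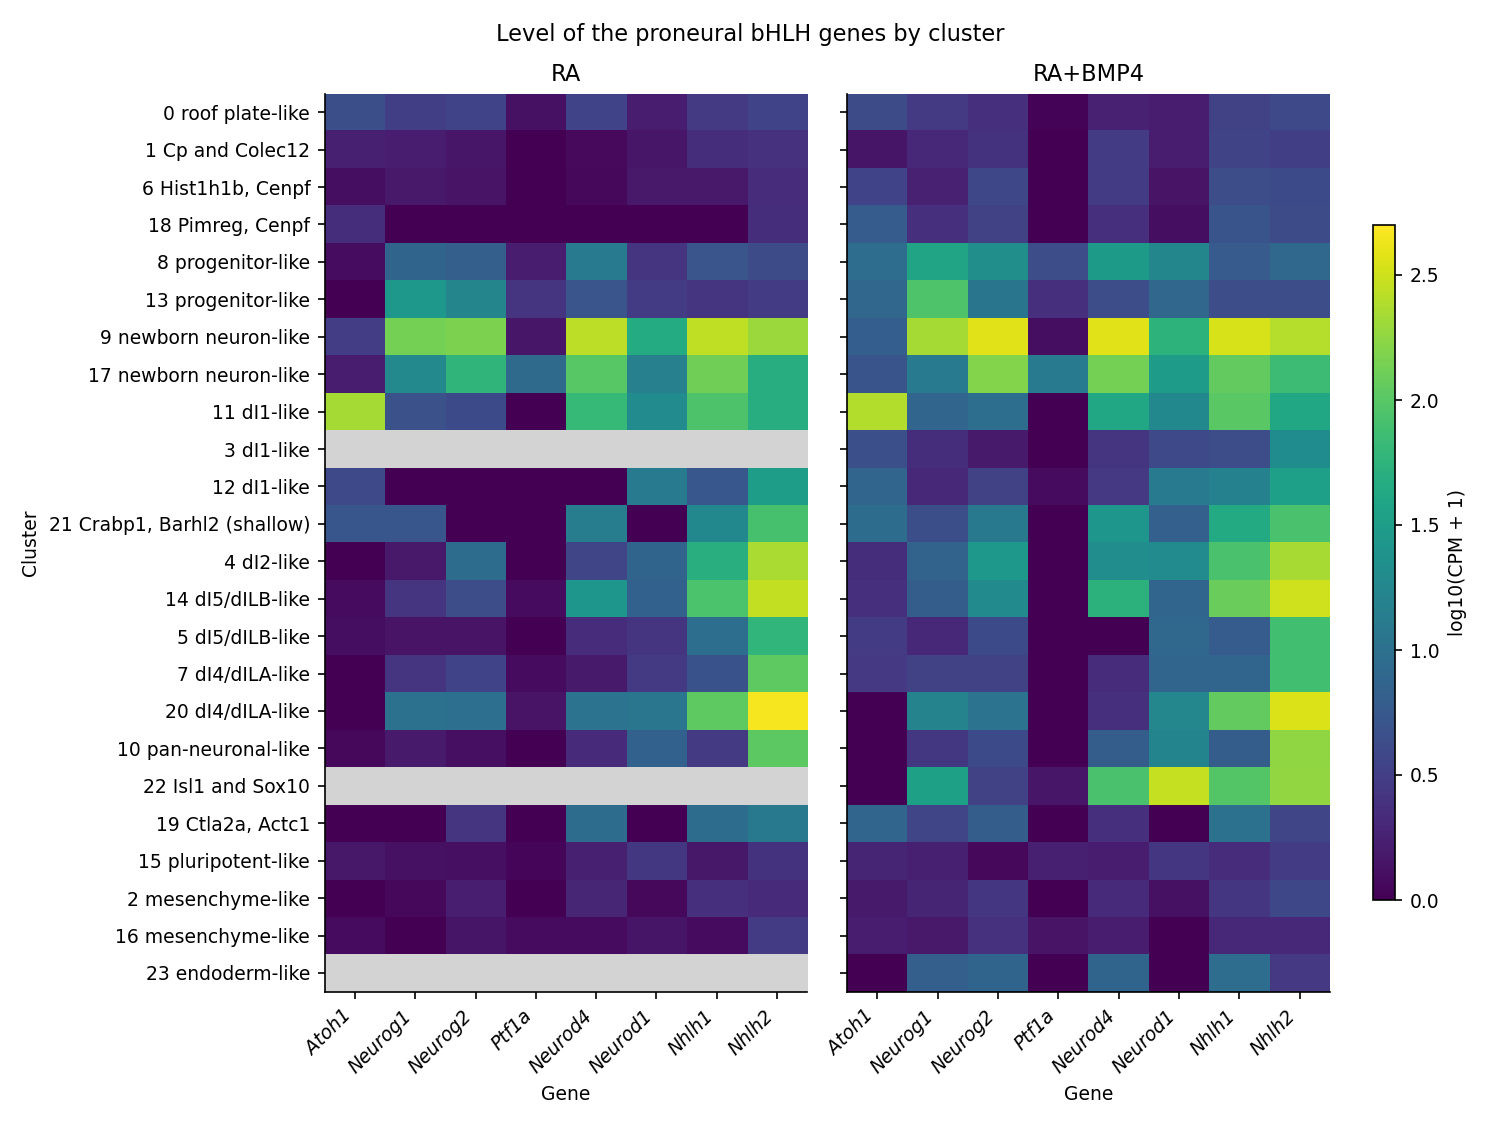
Level of each gene, log10(CPM + 1), in each of the 24 clusters (rows) in the RA and RA+BMP4 libraries; grey marks clusters with fewer than 30 cells in that library. Atoh1 is highest in cluster 11, both Neurogenins in cluster 9, and Nhlh2 in the dI4/dILA-like cluster 20.

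Neurod1 stood apart, because 1 small cluster of the RA+BMP4 library gave 47.6% of its UMIs there (617 of 1296). Cluster 22, with Isl1 and Sox10 among its leading genes, held 110 RA+BMP4 cells and 1 RA cell, and had Neurod1 at 287 CPM. In the newborn neuron-like cluster 9 Neurod1 stood at 45.1 and 55.2 CPM. Without cluster 22 the log2 ratio of Neurod1 between the libraries was 0.62, below the 2-fold line, and that of Neurog2 was 1.02, just above it. The call on Neurod1 thus rested on these cells.

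Neurod1 divided cluster 22. Of its 53 thinned cells with a Neurod1 UMI, 47 had Isl1 and 42 had Pou4f1, both transcription factors of sensory neurons, 26 had Neurod4, 26 had Nhlh1 and 34 had Nhlh2. Neurog1 was found in 14 of the 53 and Neurog2 in 1. None of the 53 had Sox10, a neural crest and glial factor. Of the 55 cells without Neurod1, 34 had Sox10, 32 had the receptor Erbb3 and 9 had Isl1. The 2 kinds of cell were alike in median depth, 18910 and 19160 UMIs. Their median doublet scores were 0.0916 and 0.121, above those of cells with any of the 8 genes, and the part of doublets in this cluster was not tested.

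In RA, 29.1% of thinned cells (1661) had a UMI of at least 1 of the 8 genes, and in RA+BMP4 25.4% (1972). Of these, 35.2% and 40.3% had several of them. The highest number in a cell was 5 in RA (14 cells) and 6 in RA+BMP4 (5 cells). The median doublet score of the cells with most genes was no higher than that of cells with 1: it was 0.0330 with 1 and 0.0247 with 5 in RA, and 0.0346 with 1 and 0.0221 with 6 in RA+BMP4.

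For each of the 28 pairs, the number of cells with both genes was set beside the number that independent detection gives, first over all cells and then within each cluster, summed over clusters. A pair was called frequent at a ratio of at least 1.5 and seldom at 0.67 or below, and was read only where at least 5 cells were expected. Over all cells, 12 pairs in RA and 17 in RA+BMP4 were frequent, and 0 and 2 were seldom. Within clusters, 2 and 0 were frequent and 0 and 2 were seldom, while 10 and 7 pairs could not be read. Most pairs that were frequent over all cells were thus not frequent within clusters.

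Neurog1 and Neurog2 were the early pair that shared cells. Both were found in 59 RA cells, against 6.23 expected over all cells, a ratio of 9.47 (7.21 to 12.2), and in 111 RA+BMP4 cells against 12.4, a ratio of 8.96 (7.37 to 10.8). Within clusters the ratio was 1.60 (1.22 to 2.06) in RA and 1.18 (0.972 to 1.42) in RA+BMP4. Without thinning the RA ratio within clusters was 1.28, under the line for a frequent pair. The cells with both made up 33.3% and 38.5% of the Neurog1 cells, and 29.4% and 33.2% of the Neurog2 cells.

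Atoh1 was seldom found with Neurog2. In RA+BMP4, 3 cells had both against 12.8 expected over all cells, a ratio of 0.235 (0.0484 to 0.686). Within clusters 8.46 cells were expected and the ratio was 0.355, with an interval of 0.0731 to 1.04 that reached 1. Atoh1 and Neurog1 were found together in 7 cells against 11.02, a ratio of 0.636 (0.256 to 1.31) over all cells, at the seldom line by its value but with an interval across 1, and 0.776 within clusters. These were the 2 pairs that were seldom over all cells. In RA the pairs were seen in 1 cell each against 2.23 (Neurog1) and 2.54 (Neurog2) expected over all cells, too few to read. Taking the Neurogenins as 1, Atoh1 was found with either in 10 RA+BMP4 cells against 19.6 over all cells, a ratio of 0.512 (0.245 to 0.941). Within clusters 14.5 cells were expected, which lay inside the interval of the count, 4.80 to 18.4. Across the alternative settings the RA+BMP4 ratio of Atoh1 with Neurog2 ran from 0.105 to 0.489 and that with Neurog1 from 0.282 to 0.989.

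Atoh1 was not apart from Neurod4 and Nhlh1 among the later factors. It was found with Neurod4 in 22 RA cells, against 4.38 over all cells, and in 44 RA+BMP4 cells against 17.1, a ratio of 2.57 (the RA pair, with under 5 expected, is not read over all cells). Within clusters the ratios were 1.55 (0.970 to 2.34) in RA, past the line for a frequent pair, and 1.17 in RA+BMP4. Without thinning the RA ratio was 1.28 and no longer past it. With Nhlh1 it was found in 19 and 84 cells, ratios of 2.48 and 2.98 over all cells and 0.930 and 0.961 within clusters. With Neurod1 it was found in 3 and 15 cells, and the RA pair is not read. The RA+BMP4 ratios with Neurod1 were 1.28 (0.715 to 2.11) over all cells and 0.713 (0.399 to 1.175) within clusters. With Nhlh2, the latest of the 8, Atoh1 was found in 10 and 29 cells, ratios of 0.774 and 0.7705 over all cells. The RA+BMP4 ratio within clusters, 0.655 (0.439 to 0.941), was the other seldom pair, but it was 0.839 without thinning and 0.758 with clusters at resolution 2.

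Among the later factors, Neurod4 and Nhlh1 shared 210 RA and 267 RA+BMP4 cells, ratios of 5.68 and 6.29 over all cells and of 1.37 and 1.22 within clusters. Neurog2 and Neurod4 shared 80 and 179 cells, ratios of 6.55 and 9.29. Nhlh1 and Nhlh2 shared 263 and 310 cells, ratios of 2.41 and 3.32 over all cells and of 1.19 and 1.28 within clusters. Ptf1a was found with Neurog2 in 2 RA and 3 RA+BMP4 cells and with Atoh1 or Neurog1 in 0 cells of either library, and none of its pairs could be read.

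**Figure D3:**
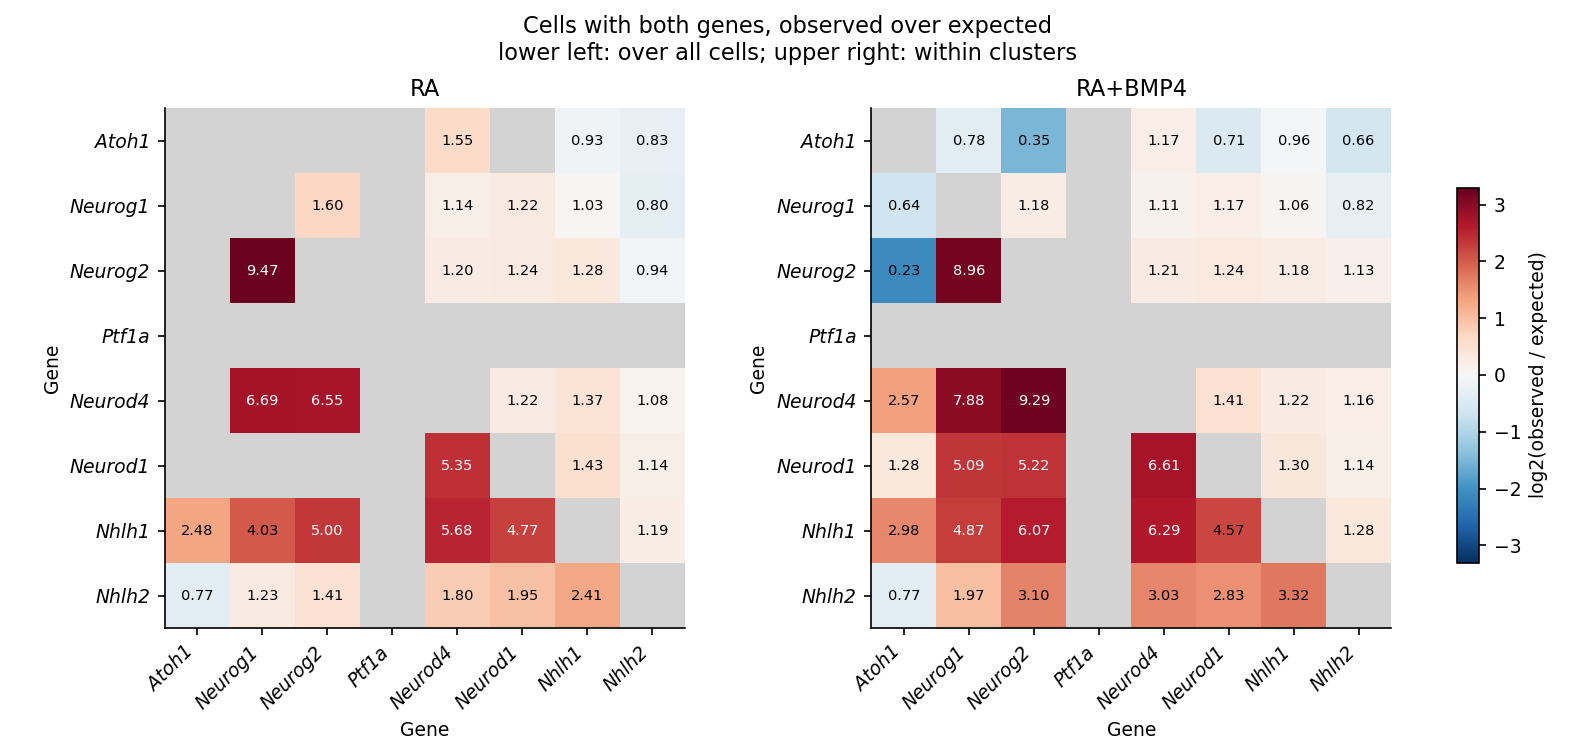
Observed over expected number of cells with both genes of each pair, in the RA and RA+BMP4 libraries; the lower left triangle is over all cells, the upper right triangle within clusters, and grey marks the diagonal and pairs with under 5 cells expected. Neurog1 with Neurog2 stands at 9.47 and 8.96 over all cells, and Atoh1 with Neurog2 at 0.235 in RA+BMP4.

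Neural cells were then split by their early factors, into those with Atoh1 and no Neurogenin (70 in RA and 283 in RA+BMP4), Neurog1 without Neurog2 (116 and 167), both Neurogenins (59 and 111) and Neurog2 without Neurog1 (140 and 211). The split used thinned UMIs, so "no", "without" and "alone" mean only that no UMI was found at that depth. Without thinning, both Neurogenins were found in 97 RA and 186 RA+BMP4 kept cells. Cells of the "alone" groups can therefore hold RNA of the other Neurogenin. Barhl1, a homeodomain factor of dI1 neurons, was found in 55.7% and 59.7% of the Atoh1 cells and in at most 7.11% of any group with a Neurogenin and no Atoh1. Of the 10 RA+BMP4 cells with Atoh1 and a Neurogenin, 5 had Barhl1. Lhx1, a factor of dI2 and other dorsal classes, was found in 5.71% and 8.48% of the Atoh1 cells, against 39.0% and 46.9% of the cells with both Neurogenins. The 2 kinds of cell, which were set apart by their proneural genes, thus differed in Barhl1 and Lhx1 as well.

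Olig3, a bHLH gene of the dorsal-most progenitors, was found in all 4 groups but at different shares. In RA it was found in 4.31% of cells with Neurog1 alone, 11.4% with Neurog2 alone, 28.8% with both and 34.3% with Atoh1. In RA+BMP4 the shares were 19.2%, 39.3%, 66.7% and 42.4%. In each group the share was higher in RA+BMP4. In the whole libraries Olig3 stood at 8.42 CPM under RA, against 26.3 CPM under RA+BMP4.

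Cells with Neurog2 alone were the most neuronal by their RNA, and cells with Neurog1 stood nearer to progenitors. The median share of UMIs in the pan-neuronal list was 0.241% and 0.160% in cells with Neurog1 alone, 0.234% and 0.365% in cells with both, and 0.517% and 0.778% in cells with Neurog2 alone. The Atoh1 cells lay at 0.381% and 0.427%. Among the Neurogenin groups, the progenitor list (Sox2, Pax3, Nes and the like) ran the other way. Its medians were 0.210% and 0.232% for Neurog1 alone, 0.213% and 0.179% for both, and 0.0751% and 0.0547% for Neurog2 alone. The Atoh1 cells, at 0.0695% and 0.0815%, were the lowest in RA and so did not follow that order. Dll1 was found in 46.6% and 34.1% of cells with Neurog1 alone and in 37.1% and 14.2% with Neurog2 alone. Its relative Dll3 had the opposite order, 19.8% and 17.4% against 43.6% and 40.8%.

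The cells with Neurog2 alone also differed between the libraries in markers of neuron classes, as the whole libraries did. Lbx1, a factor of the dI4 to dI6 classes, was found in 26.4% of them in RA and 6.16% in RA+BMP4, and Tlx3, a factor of excitatory dI3 and dI5 neurons, in 34.3% and 13.7%. Foxd3, a factor of dI2, had the opposite order, 5.71% in RA and 17.5% in RA+BMP4. Between the whole libraries the log2 ratios were -2.21 for Lbx1, -0.81 for Tlx3 and 1.81 for Foxd3. In cells with Neurog1 alone, Lbx1 (13.8% and 3.59%) and Foxd3 (0% and 5.99%) had the same direction, and Tlx3 (8.62% and 13.2%) did not. Tlx3 was also found in 21.4% and 24.4% of the Atoh1 cells.

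**Figure D4:**
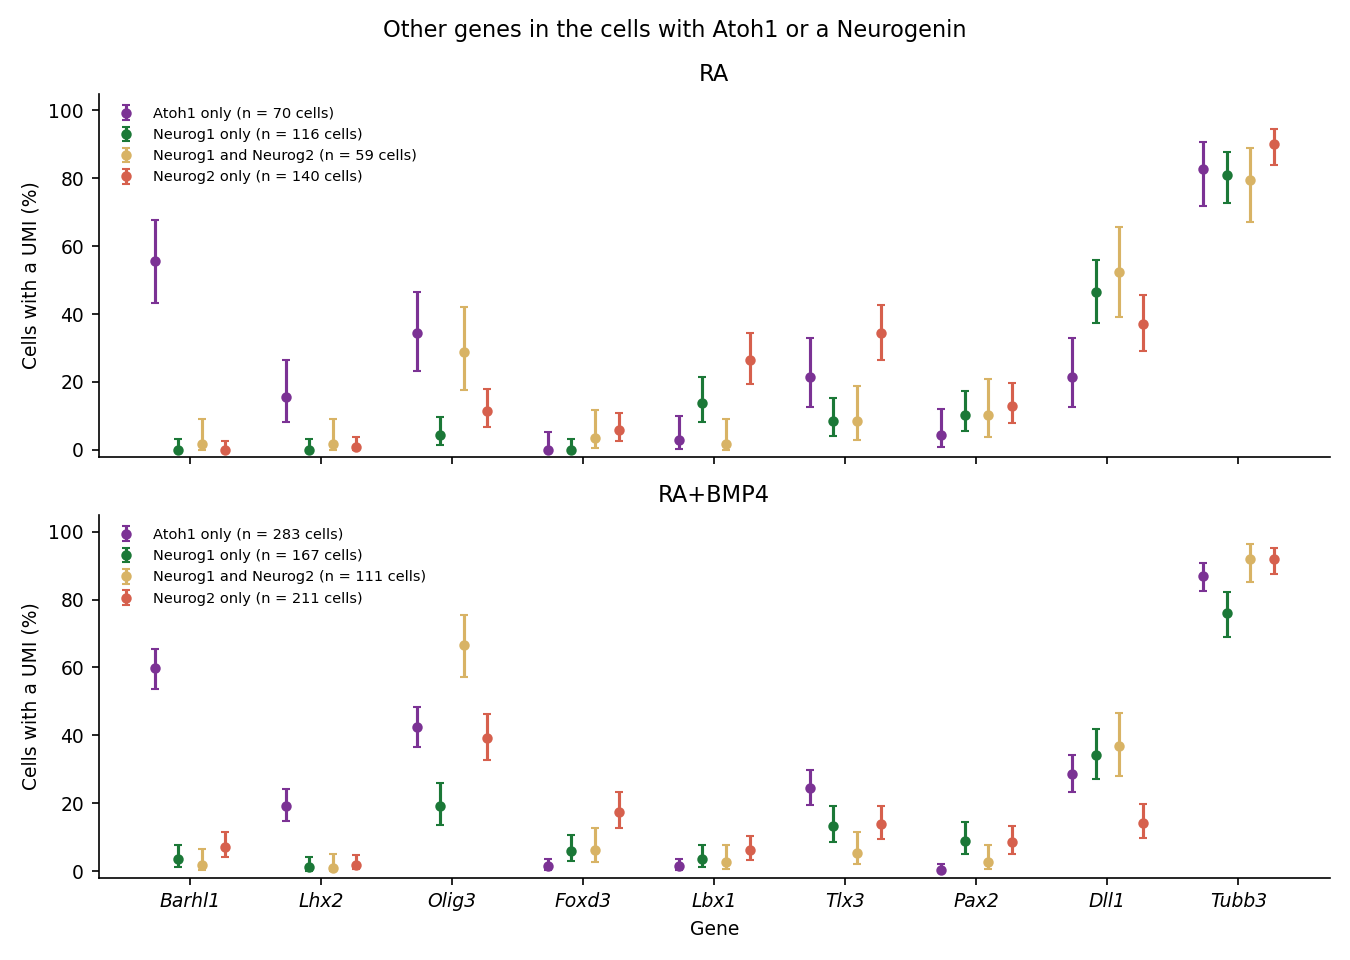
Share of neural cells (percent, Clopper-Pearson intervals) with a thinned UMI of each named gene, in the RA and RA+BMP4 libraries. Groups, set by thinned UMIs, are cells with Atoh1 and no Neurogenin, Neurog1 alone, both Neurogenins and Neurog2 alone. Barhl1 marks the Atoh1 cells in both libraries, and Olig3 is highest, at 66.7%, in the RA+BMP4 cells with both Neurogenins.

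To order the 8 genes, neural cells were placed in 10 bins of equal size by the share of their UMIs in the pan-neuronal list (Tubb3, Stmn2, Elavl3 and the like). Neurog1 came first among the genes with enough cells, with a median percentile of 47.7 in RA and 48.1 in RA+BMP4. Atoh1 followed at 49.7 and 50.7. Next came Neurog2 at 51.0 and 53.4 and Neurod4 at 52.7 and 52.4, whose order differed between the libraries. Neurod1, at 54.5 and 60.2, and Nhlh1, at 57.5 and 62.3, came later, and Nhlh2 came last at 75.3 and 78.5. Neighbours from Neurog1 to Neurod4 lay within a few percentiles of each other, and 1 library per condition gives no spread to separate them by.

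The peaks of the shares set Nhlh2 last, but were too close to order the other genes, which peaked in bin 5 or 6. Neurog1 peaked at 17.4% of cells in bin 5 in RA and 13.9% in bin 5 in RA+BMP4. Neurog2 peaked at 14.3% in bin 5 and 15.9% in bin 6, and Atoh1 at 6.03% in bin 5 and 15.7% in bin 6. Neurod4, Neurod1 and Nhlh1 all peaked in bin 6, with 29.2% and 27.0%, 8.25% and 12.6%, and 41.2% and 35.6%. Nhlh2 was already found in 32.1% and 23.5% of bin 6 cells and peaked late, at 41.7% in bin 9 in RA and 46.0% in bin 10 in RA+BMP4. The Nhlh1 curve of RA+BMP4 had another high point, 24.4%, in bin 10.

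**Figure D5:**
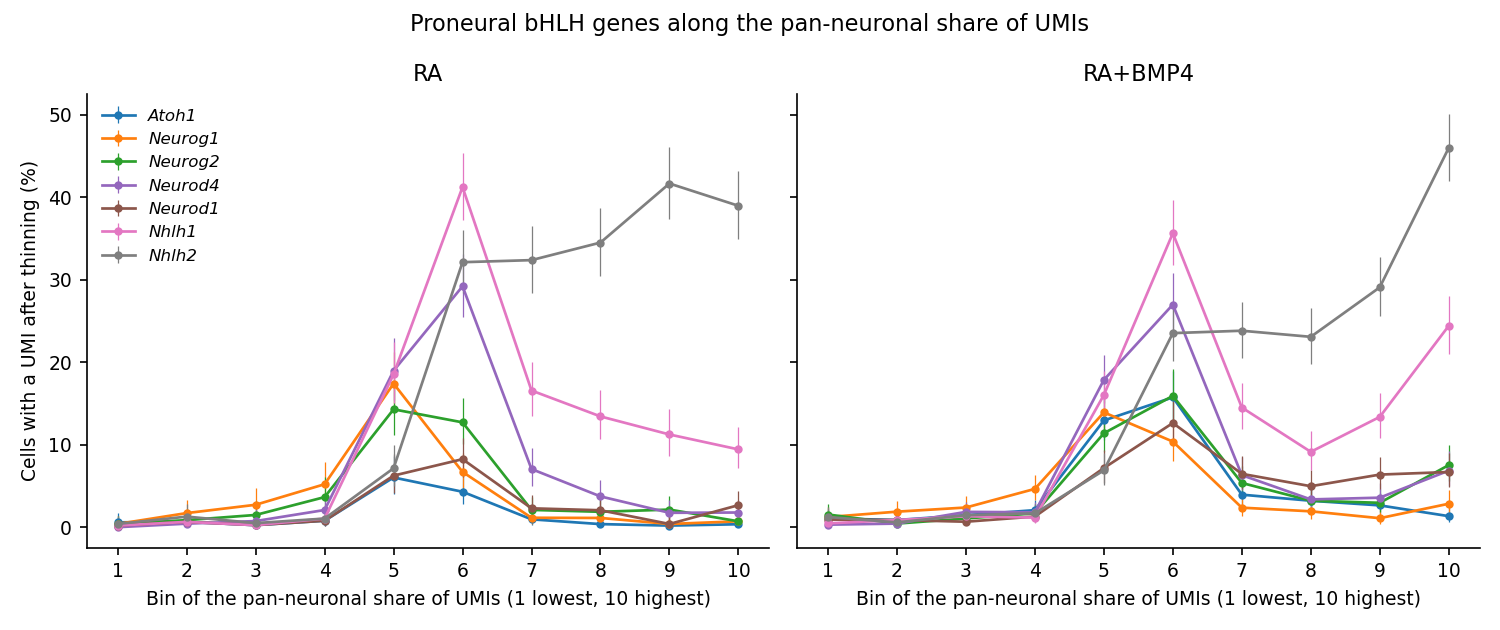
Share of neural cells (percent) with a thinned UMI of each gene in 10 bins ordered by the share of UMIs in pan-neuronal genes, for the RA and RA+BMP4 libraries; Ptf1a, with too few cells, is not drawn. The 6 other genes peak in bins 5 and 6, and Nhlh2 in bins 9 and 10.

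Cells with any of the 8 genes were set beside neural cells with none (1646 against 3289 in RA and 1934 against 4726 in RA+BMP4), with genes called at 2-fold or more. Over all genes tested, 2.66% were higher and 6.17% lower in RA, and 2.47% higher and 4.44% lower in RA+BMP4. Of the 10 newborn neuron genes, 9 were higher in RA and 10 in RA+BMP4, with median log2 differences of 1.80 and 2.32. Of the 16 genes of G2 and M phase, such as Mki67 and Top2a, 16 were lower in RA and 15 in RA+BMP4, with medians of -2.15 and -1.34. Of 14 genes of S phase, 11 were lower in RA and 5 in RA+BMP4, with medians of -1.51 and -0.92. By summed UMIs, the cells with a proneural gene were thus low in cell cycle genes and high in genes of newborn neurons in both libraries. In RA+BMP4 the median share of UMIs per cell in S phase genes ran from 0.0223% (Nhlh2) to 0.0305% (Neurod4), against 0.0302% with none. Ptf1a is left out of this range.

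The level of cell cycle genes differed among cells with different members of the 8. The summed level of the 16 genes of G2 and M phase was 2312 CPM (RA) or 1996 CPM (RA+BMP4) in neural cells with none of the 8. In RA it was 484 CPM in cells with Neurog1, 690 with Neurog2, 560 with Atoh1, 589 with Neurod4, 528 with Neurod1, 322 with Nhlh1 and 208 with Nhlh2. In RA+BMP4 it was higher in cells with Neurog1, 1084 CPM, with Neurod1, 1027 CPM, and with Neurod4, 929 CPM, while it stood at 804 with Neurog2, 689 with Atoh1, 341 with Nhlh1 and 342 with Nhlh2. By summed level, cells with Nhlh1 or Nhlh2 were thus the lowest of these 7 in both libraries. The median share of UMIs per cell in these genes was closer between the libraries. It was 0.0127% in RA and 0.0130% in RA+BMP4 with Neurog1, 0.0103% and 0.0113% with Neurod4, and 0.00864% and 0.0131% with Neurod1. In cells with none of the 8 it was 0.0176% and 0.0164%. By this median the cells with Atoh1 were the lowest in RA, at 0.0084%. The few cells with Ptf1a, 9 in each library, stood at 1510 CPM in RA, below the cells with none, and at 4458 CPM in RA+BMP4, above them.

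The partners and inhibitors of the 8 proteins were set beside them in the same way. Of the 3 E protein genes, 1 was higher in the proneural cells in RA and 0 in RA+BMP4, though their median differences were alike, 0.89 and 0.87. Of the 4 Id genes, 3 were lower in RA and 1 in RA+BMP4, with medians of -1.33 and -0.96. Of 10 Notch pathway genes tested, 4 were higher and 4 lower in RA, and 4 higher and 2 lower in RA+BMP4. Between the whole libraries 0 of the 3 E protein genes and 0 of the 4 Id genes passed 2-fold. Of the 17 Notch pathway genes, Heyl, a target of the pathway, was higher in RA+BMP4 (log2 ratio 1.37) and Hes5, another target, was lower (-1.32).

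The leading genes of each gene's cells were named by their lower value over the 2 libraries. Cells with Atoh1 were led by Rassf4, at 356 and 370 CPM against 13.04 and 14.96 CPM in the other neural cells, then Gsg1l, Adamts5, Tchh and S100a6. Cells with Neurog1 were led by Pcdh8, a protocadherin (185 and 198 CPM against 20.2 and 18.8), then Gadd45g, Dll1, Btbd17 and Btg2. Those with Neurog2 were led by Gadd45g and Olig3. The lists of the Neurogenins and the later genes overlapped. Btbd17 was among the top 5 for Neurog1, Neurog2, Neurod4, Neurod1 and Nhlh1. Sstr2 was among them for Neurog2, Neurod4, Neurod1 and Nhlh1, and Ppp1r14a for Neurod4, Neurod1, Nhlh1 and Nhlh2. Atoh1 shared 0 of its top 5 with the others.

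Across 42 profiles (clusters with at least 50 cells, by library), the gene most like Atoh1 was Fmo2 (Pearson r 0.899), followed by Lhx2 (0.817) and Rassf4 (0.784). Neurog1 was most like Abcd2 (0.822) and Neurog2 most like Rhbdl3 (0.839), and Prdm13, a zinc finger gene of dorsal progenitors, was in the top 3 of both. Neurod4 was most like the somatostatin receptor Sstr2 (0.924), Neurod1 most like Cog1 (0.817), Nhlh1 most like Fam110a (0.930) and Nhlh2 most like Hspa12a (0.936). Ptf1a was most like Gsx1 (0.908), but this value rests on few counts. Its highest profile stood at 12.1 CPM, and it had 48 UMIs in RA and 30 in RA+BMP4. Among the 8 themselves, r was 0.841 for Neurod4 with Nhlh1, 0.815 for Neurog2 with Neurod4, 0.786 for Neurog1 with Neurog2, and at most 0.323 for Atoh1 with any other. Profiles of a library share its depth and its cells' RNA, so these are descriptions.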

How the data were processed

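Day 9 cultures of MM13 mouse embryonic stem cells under RA and under RA+BMP4 gave 1 library each. The authors deposited raw UMI counts per gene and barcode, as the files' whole numbers show. Reads were processed with CASAVA and Cell Ranger 3.0.2 against GRCm38, per the submitters' processing notes. The sources used here do not give the settings for overlapping and antisense genes.

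Barcodes with at least 1000 genes, at most 10% mitochondrial UMIs and no doublet call were kept (142 RA and 317 RA+BMP4 barcodes were called doublets, with a simulation-based caller set to an expected rate of 8%). That left 108795503 UMIs in RA and 101567226 in RA+BMP4. Clusters came from 3000 variable genes, 30 principal components, 20 neighbours and Leiden resolution 1, with the 8 genes, all listed genes and mitochondrial and ribosomal genes left out. The rule that turns markers into cluster names was written after the clusters were seen. The 8 genes and all lists were chosen with earlier results of these data known. Levels are CPM of summed UMIs. Ratios have exact conditional binomial intervals, levels and counts of pairs exact Poisson ones and shares exact Clopper-Pearson ones. A gene was called at 2-fold with at least 1 CPM in a library, or, between cells within a library, at 2-fold of CPM + 5 with at least 20 CPM.

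Genes named are the 8, those of the marker and pathway lists, the top 5 by log2 of CPM + 5 in a gene's cells over other neural cells (lower of both libraries, at least 30 cells in each), the top 3 by likeness over clusters, and leading genes of clusters. Genes of cluster 22 and of each group of cells were picked from the lists after their values were seen. Neural cells are those outside the pluripotent-like, mesenchyme-like and endoderm-like clusters.

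Alternatives covered filters, doublets, depth of thinning, UMIs required, scaling (edgeR 4.0.16 TMM and median of ratios), cell weighting, resolution and bins. Scripts were tested on simulated counts. Tools were Python 3.11.15, scanpy 1.11.5, leidenalg 0.10.2, igraph 0.11.9, numpy 2.4.6, scipy 1.17.1 and matplotlib 3.10.9.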

Additional observations from a re-analysis of the deposited data

How the results depend on the processing

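With 1 library per condition, culture, library and condition cannot be told apart, and depth limits Ptf1a (48 and 30 UMIs) and most pairs in RA. No paired analysis was possible because each condition has 1 library. Of the summary counts under an alternative, 52 stayed within 1.5 times the reported one and 22 did not. The 2 genes at least 2-fold higher became 4 under the strict cell filter and 0 at a minimum of 20 CPM, where 3 of the 8 were tested and 0.811% of 7151 genes were higher. Leaving out cluster 22, an alternative chosen after seeing the data, kept the count at 2 but replaced Neurod1 with Neurog2. For shares of cells, the count at least 2-fold higher went from 1 to 2 under the strict filter, and the count at least 2-fold lower from 0 to 1 when 2 UMIs were required (Ptf1a).

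The counts of pairs moved most. Frequent pairs in RA, 2 within clusters, were 0 without thinning, 1 with 2 UMIs, with doublets kept or under the strict filter, and 12 over all cells or within 10 bins of neuronal share. Seldom pairs in RA, 0, were 1 with 2 UMIs and 2 within bins. In RA+BMP4, frequent pairs, 0, were 3 with 2 UMIs, 17 over all cells and 15 within bins, and seldom pairs, 2, were 1 without thinning, with 2 UMIs or with clusters at resolution 2, and 4 within bins. The genes with over 50% of their cells in 1 cluster, 3 in RA and 4 in RA+BMP4, were 6 in RA with 2 UMIs, and 0 and 2 at resolution 2. Atoh1 stayed at least 2-fold higher in RA+BMP4 by its summed level in the alternatives at 1 CPM, with log2 ratios of 1.82 under TMM and 1.81 under median of ratios. The order along the neuronal share placed 1 gene, Nhlh2, in the most neuronal bins in each setting run. The causes of these moves were not tested.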

Other observations

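Other neural bHLH genes were also measured. Of the 12 listed, 5 reached 1 CPM in a library, and Olig3, with a log2 ratio of 1.64, was the 1 that passed 2-fold between the libraries. In cells with Neurog2, Olig3 stood at 87.6 CPM under RA against 6.22 CPM in the other neural cells, and at 186 CPM under RA+BMP4 against 26.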
